A study of Homo sapiens with 12 samples.

Results

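The genes described here are 54 genes of mitosis and the G2/M transition, taken as a named list and found by gene symbol among the 23434 rows of the count table. All 54 had a row, and all 54 passed the filter on low counts in every comparison. The rule is a list of gene names and applies no measured value, but the list was drawn up with earlier results of these data known. The table comes from EU-seq, in which RNA made during a pulse of 5-ethynyl-uridine (EU) is tagged, captured and sequenced, so that its counts follow RNA made in that window. It was applied to U2OS, a human osteosarcoma cell line, carrying MycER, in which the Myc transcription factor is joined to an estrogen receptor domain and becomes active upon addition of 4-hydroxytamoxifen (OHT). The 12 libraries are 3 each of shNT (a non-targeting short hairpin RNA), shNT_OHT, shCDK12 (a hairpin against the transcription kinase CDK12) and shCDK12_OHT. All groups received doxycycline at 1 µg/mL to switch on the hairpin, nocodazole at 100 ng/mL for 8 h, a mitotic shake-off, release for 12 h and 0.5 mM EU for the last 2 h. The OHT groups also had 300 nM OHT for 40 h. From each library 40 µg of human RNA was mixed with 10 µg of mouse RNA, but the table has no mouse rows, so a change in the total amount of new RNA cannot be seen. Whether the line is 1 clone is not given in the sources used here.

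Cells enter mitosis when cyclin B and CDK1 become active, with Polo-like and Aurora kinases helping to build the spindle. The spindle assembly checkpoint holds the anaphase-promoting complex (APC/C) back until every kinetochore is attached, after which cohesin is cleaved and cytokinesis follows. Most of these genes are transcribed in late S and G2 phase and are held low in early G1. They are under the DREAM, MYBL2-MuvB and FOXM1 complexes, which act through the CHR element near the start site. CCAAT boxes, bound by the factor NF-Y, are counted beside it below. The cells here were collected after release from a nocodazole block, and their cell cycle stage at harvest was not measured here.

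Promoters of 5 members are shown because they carry the arrangements in question: KIF20A, PLK1 and HMMR had the largest falls with OHT in the libraries labelled shCDK12, CCNB2 has evenly spaced CCAAT boxes, and NCAPD2 did not pass the test there. Each is the 150 bases just before the annotated start, written 5′ to 3′ on the strand of the gene, from RefSeq on GRCh38.p14. Capitals mark TTTGAA, the form of the CHR element that was searched, and CCAAT, each on either strand. ATTGG is CCAAT on the other strand, and CCAATTGG reads as CCAAT on both.
KIF20A (chr5:138178962-138179111, plus strand): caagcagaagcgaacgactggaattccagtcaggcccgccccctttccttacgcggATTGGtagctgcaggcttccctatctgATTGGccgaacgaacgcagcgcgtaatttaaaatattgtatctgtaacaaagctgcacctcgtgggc
PLK1 (chr16:23678739-23678888, plus strand): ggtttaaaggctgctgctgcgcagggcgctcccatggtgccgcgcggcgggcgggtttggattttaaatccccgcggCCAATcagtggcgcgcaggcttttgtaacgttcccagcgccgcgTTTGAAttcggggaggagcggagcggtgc
HMMR (chr5:163460482-163460631, plus strand): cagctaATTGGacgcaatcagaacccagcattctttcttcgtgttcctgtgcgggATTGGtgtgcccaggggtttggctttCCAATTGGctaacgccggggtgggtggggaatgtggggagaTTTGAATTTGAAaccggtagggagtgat
CCNB2 (chr15:59104996-59105145, plus strand): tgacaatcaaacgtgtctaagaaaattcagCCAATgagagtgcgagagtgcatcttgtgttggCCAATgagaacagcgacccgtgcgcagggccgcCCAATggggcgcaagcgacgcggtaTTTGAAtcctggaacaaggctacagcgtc
NCAPD2 (chr12:6493952-6494101, plus strand): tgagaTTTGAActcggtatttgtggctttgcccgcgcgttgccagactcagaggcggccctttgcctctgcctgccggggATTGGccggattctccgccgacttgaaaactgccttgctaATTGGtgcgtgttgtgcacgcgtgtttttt
The promoters of CCNB2 and PLK1 held TTTGAA at -29 from the start, and that of HMMR held it at -28 and -22. In CCNB2 the CCAAT boxes began at -120, -87 and -54. KIF20A held CCAAT on the opposite strand at -94 and -67 and no TTTGAA in these bases, and the TTTGAA of NCAPD2 lay at -145. Of the 54 members 46 were in the promoter table, which runs from 250 bases before to 50 after the start, and the other 8 were BIRC5, AURKA, RAD21, BUB3, UBE2C, TTK, TPX2 and FOXM1. TTTGAA was found on either strand in 31 of the 46 (67.4%), against 15.2% of 35116 promoters. Of the 10047 promoters of genes tested in any of the comparisons, 9.87% held it. CCAAT was found in 33 (71.7%), against 34.6% and 36.6%. The E-box CACGTG, which Myc and other factors bind, was found in 7 (15.2%), against 7.26% and 10.2%. Both TTTGAA and CCAAT were present in 24 members and neither in 6, namely CDC25B, CDC25C, CENPE, KIF2C, LIN9 and MYBL2. Only exact matches around the annotated start taken for each gene were counted. Other starts and other forms of these elements were not searched, so a gene without a match may still have them.

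**Figure D1:**
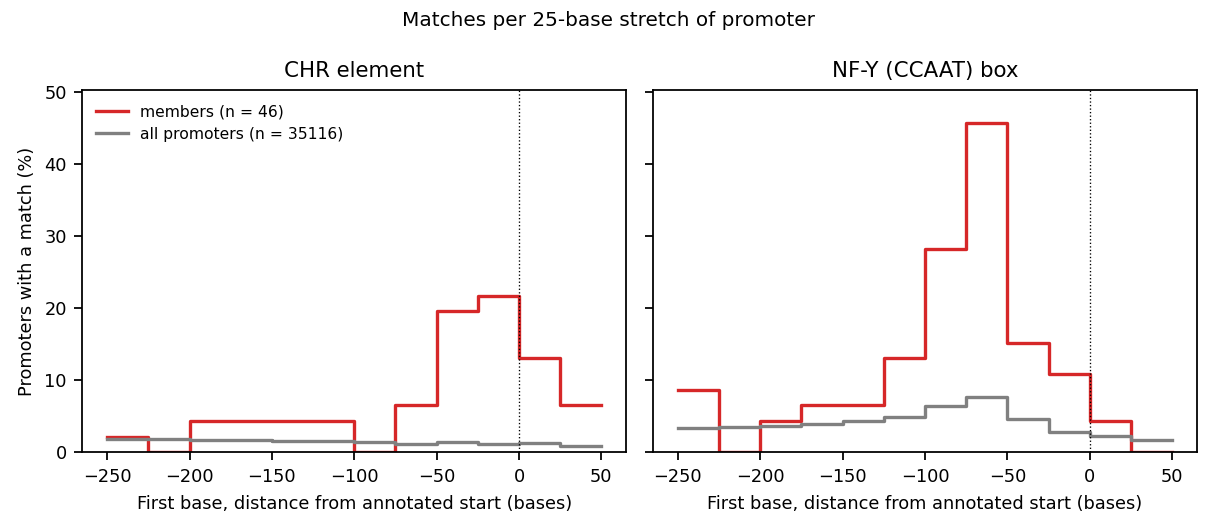
Share of promoters (%, y axis) with a match to TTTGAA (left) or CCAAT (right) on either strand, by the distance of its first base from the annotated start in stretches of 25 bases (x axis), for 46 members (red) and 35116 promoters (grey). TTTGAA in the members peaked from -50 to -1, at 19.6% and 21.7%, and CCAAT from -75 to -51, at 45.7%.

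Before any comparison, the label shCDK12 was checked against CDK12 itself. Levels are in CPM, gene counts scaled to 1000000 counts per library after TMM normalization. CDK12 was at 319, 279 and 307 CPM in shNT and at 449, 359.5 and 400.2 in shNT_OHT. CDK12 was at 301, 275 and 299 in the libraries labelled shCDK12 and at 213, 204 and 216 in those labelled shCDK12_OHT. The libraries labelled shCDK12 overlapped shNT (log2 fold change -0.04 ± 0.09, adjusted p = 0.72), whereas those labelled shCDK12_OHT were lower than shNT_OHT (log2 fold change -0.90 ± 0.11, adjusted p = 9.12e-05). Thus new CDK12 RNA was not lower past the threshold in the libraries labelled shCDK12 without OHT. EU-seq counts RNA made during the pulse, so the CDK12 RNA or protein remaining in the cells was not measured. Both hairpin groups are named by their label below. MYC was at 1977 to 2193 CPM in shNT, 1721 to 2278 in shNT_OHT, 1027 to 1244 in those labelled shCDK12 and 1977 to 2071 in those labelled shCDK12_OHT. It was lower in the libraries labelled shCDK12 than in shNT (log2 fold change -0.86 ± 0.08, adjusted p = 1.72e-10). The cells also carry MycER, and how its reads were counted is not known, so these counts may not be of MYC alone. Of a list of 16 Myc targets, 12 of the 15 tested were higher in shNT_OHT than in shNT (9.11% of all genes). In the libraries labelled shCDK12, 10 of 15 were higher than in shNT (31.3% of all genes). With OHT in the libraries labelled shCDK12, 0 of 16 rose and 13 fell (median log2 fold change -0.54). The difference between the OHT responses of both backgrounds (the interaction, below) was negative past the threshold for 16 of 16. Of all genes tested 25.5% rose, 23.6% fell and 21.9% had a negative interaction. MYC counts rose with OHT in the libraries labelled shCDK12 (log2 fold change 0.84 ± 0.08, adjusted p = 3.35e-08). Thus the Myc targets called changed in opposite directions with OHT in shNT and in that hairpin, and all directions below hold only for the libraries as labelled. Were the labels shCDK12 and shCDK12_OHT exchanged, each change with OHT in that hairpin would have the opposite sign. Their summed level was 2833 ± 41 CPM (SD, n = 3) in shNT, 4571 ± 223 in shNT_OHT, 4816 ± 118 in those labelled shCDK12 and 2993 ± 121 in those labelled shCDK12_OHT. The osteosarcoma and mesenchymal markers VIM, RUNX2, COL1A1, SPARC and CD44 were present in all libraries. However, 5 of 5 were lower in the libraries labelled shCDK12 than in shNT (median log2 fold change -1.18), as were 30.6% of all genes tested. With OHT there 4 of 5 rose (25.5% of all genes), with a positive interaction for 4 of 5 (23.2% of all genes). RUNX2, for example, averaged 216 CPM in shNT, 137 in shNT_OHT, 61.5 in those labelled shCDK12 and 108 in those labelled shCDK12_OHT. Of markers of other cells PTPRC, PECAM1 and ALB were at or below 1.32 CPM and EPCAM averaged 0.80 CPM in shNT, 1.61 in shNT_OHT, 8.08 in those labelled shCDK12 and 2.60 in those labelled shCDK12_OHT, while the epithelial keratin KRT18 was at 355 to 572. Counts per library ran from 1251695 to 10447836, an 8.35-fold range, with shNT_OHT the shallowest group. The part of these differences between groups in the results below was not tested.

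Summed over all members, the mitosis and G2/M genes were lowest in the libraries labelled shCDK12_OHT. The summed level was 7428 ± 270 CPM (SD, n = 3) in shNT, 8005 ± 365 in shNT_OHT, 7661 ± 211 in the libraries labelled shCDK12 and 4664 ± 127 in those labelled shCDK12_OHT. They took 0.711% to 0.803% of the counts of each library in the first 3 groups and 0.470% to 0.499% in the last. The group labelled shCDK12_OHT had the lowest mean for 48 of the 54 genes and the highest for 0, while the highest mean fell to shNT_OHT for 24 genes, to those labelled shCDK12 for 23 and to shNT for 7. For 34 genes all 3 libraries labelled shCDK12_OHT lay below the other 9, as did 6.31% of 11699 genes tested. In a bulk sample, fewer cells at a stage and less new RNA per cell cannot be told apart.

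**Figure D2:**
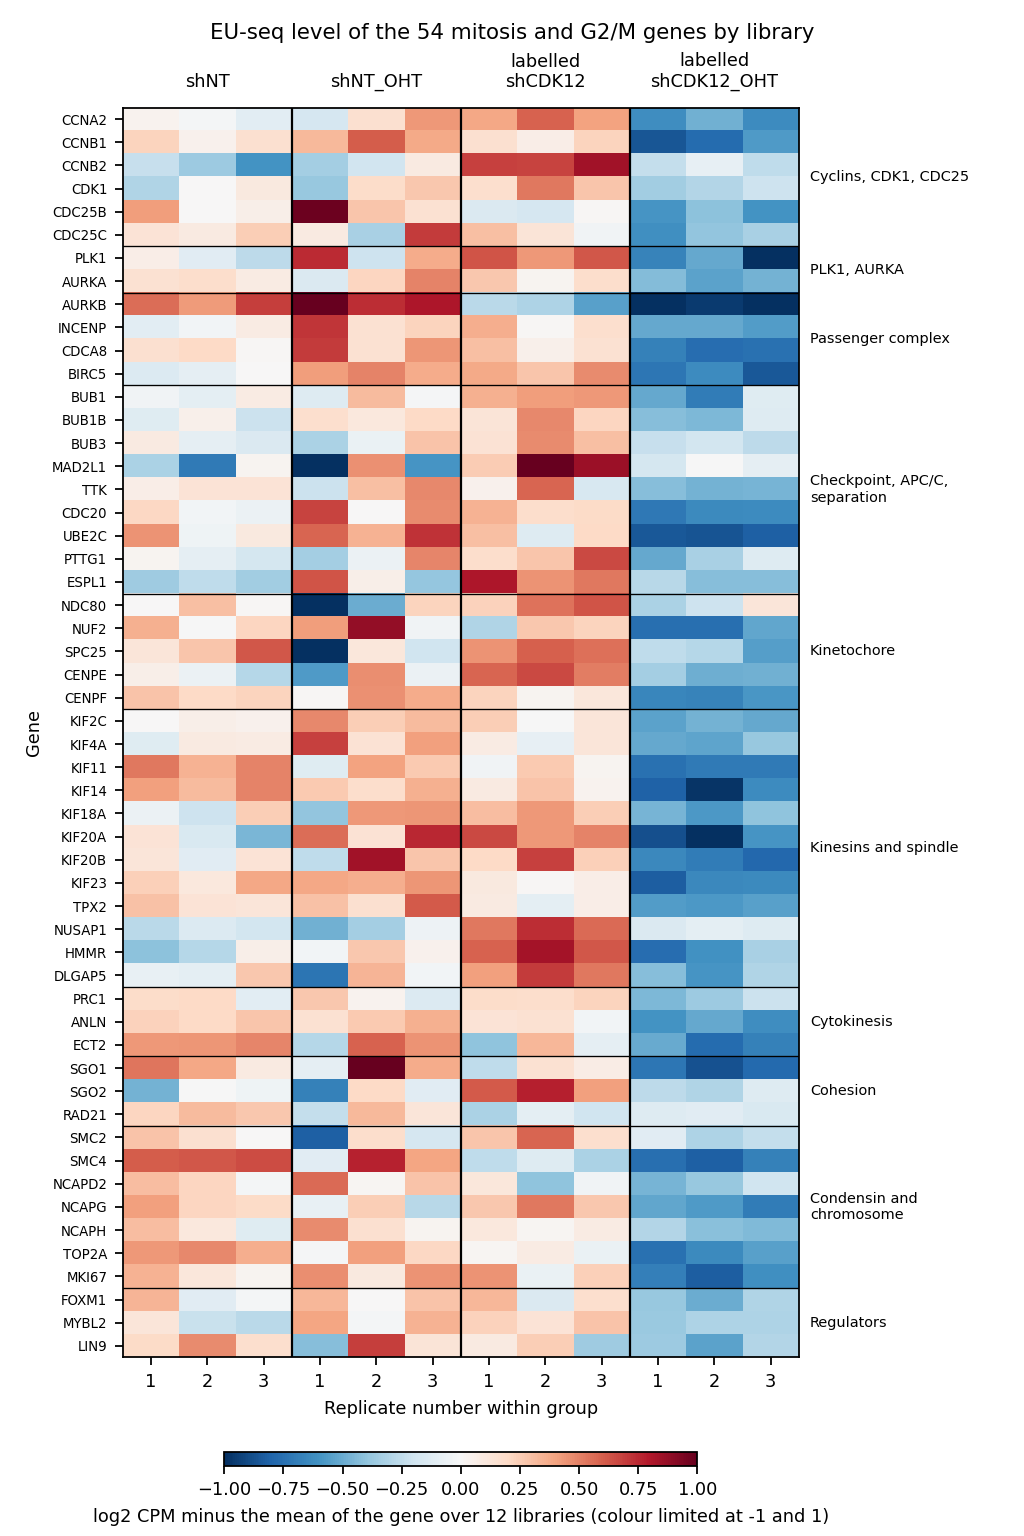
Level of each of the 54 genes (rows, by role) in the 12 libraries (columns, by group and replicate number), as log2 CPM minus the mean of the gene over all libraries. The columns labelled shCDK12_OHT are blue (below the mean) in nearly every row, and the shNT_OHT columns differ visibly between replicates.

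Differences were tested with edgeR's quasi-likelihood test on the counts, with Benjamini-Hochberg adjustment over all genes tested and an adjusted p under 0.05 as the threshold. Every adjusted p below comes from it, log2 fold changes carry their standard error (SE), and n is 3 libraries per group. The labels do not say that replicates are separate cultures, so these p-values measure only the spread between these libraries. The 4 pairwise comparisons share groups with each other and are given side by side. With OHT in the shNT background, 2 of 54 genes rose and 0 fell. Of 10272 genes tested 17.4% changed, 9.11% up and 8.27% down. The median log2 fold change was 0.10 for the members against -0.03 over all genes. Without OHT, 21 genes were higher and 8 lower in the libraries labelled shCDK12 than in shNT. Of 11718 genes tested 61.9% differed, 31.3% higher and 30.6% lower, and the medians were 0.10 and 0.01. The libraries of these groups did not overlap for 19 members in the higher direction (32.3% of all genes) and 10 in the lower (32.7%). With OHT in the libraries labelled shCDK12, 0 rose and 52 fell. Of 12519 genes tested 49% changed, 25.5% up and 23.6% down, and the medians were -0.75 and 0.02. The libraries did not overlap, in the direction of a fall, for 51 members (26.8% of all genes). Between both OHT groups, 0 were higher and 38 lower in those labelled shCDK12_OHT. Of 11668 genes tested 45.4% differed, 22.7% each way, and the medians were -0.67 and 0.02, with no overlap for 37 members (28% of all genes). The interaction, which is the OHT response in the hairpin labelled shCDK12 minus that in shNT, was negative past the threshold for 44 genes and positive for 0. Of 11699 genes tested 45.1% passed it, 21.9% negative and 23.2% positive, and the medians were -0.85 and 0.04.

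Depth and single libraries moved some of these counts. With every library thinned to 1251695 counts, 23 of the 50 members tested fell with OHT in the libraries labelled shCDK12 (7.40% of all genes) and 23 of 50 were lower between the OHT groups (13.0%), while the medians were -0.83 and -0.72. Thinning left 8 of 51 higher without OHT (19.7%). The shNT response to OHT gave 0 members higher without any 1 of the shNT libraries and 9 without shNT_OHT replicate 2. Calls over all genes moved the same way, from 17.4% of genes tested to between 6.58% and 7.89% without 1 shNT library and to 22.8% without shNT_OHT replicate 2.

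**Figure D3:**
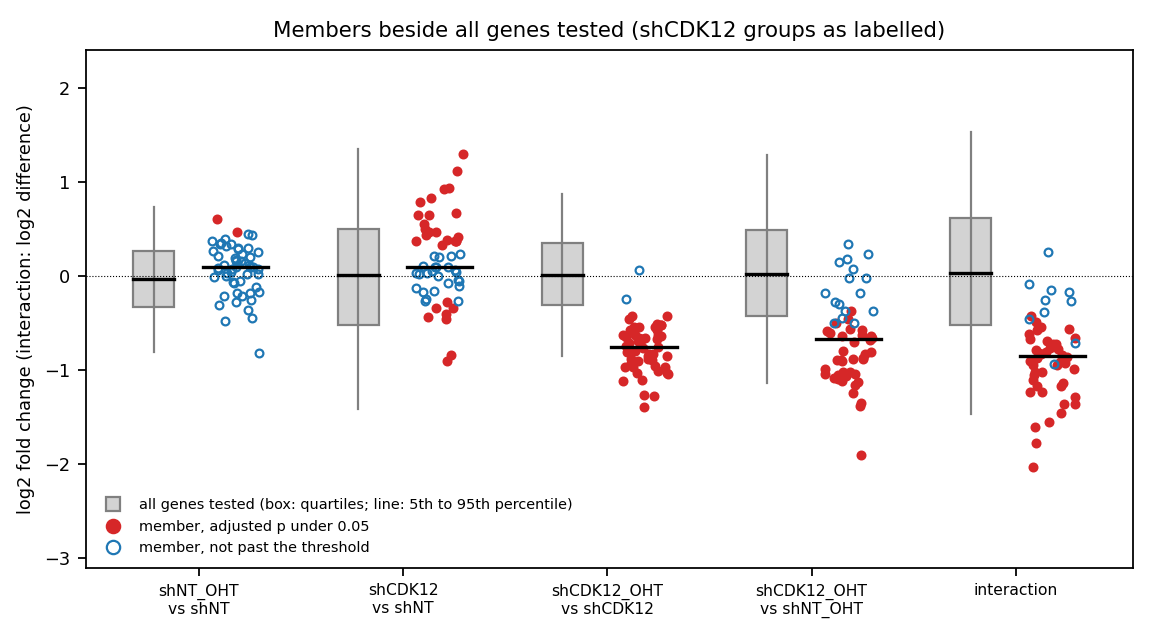
log2 fold change (y axis; for the interaction, the log2 difference between the OHT responses) of the 54 genes in each comparison (points, red where past the threshold) beside all genes tested (box of quartiles, line from the 5th to the 95th percentile). Black lines are medians, and those of the 54 genes sat at -0.75, -0.67 and -0.85 in the comparisons with shCDK12_OHT and the interaction.

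Cyclins A and B bind CDK1, and CDC25 phosphatases activate the complex. All 6 genes of this group fell with OHT in the libraries labelled shCDK12, as did 23.6% of all genes tested. Between the OHT groups 4 were lower, against 22.7% of all genes. In parentheses a log2 fold change is followed by its SE, and a mean level by its SD (n = 3). CCNB1, cyclin B1, was at 174, 154 and 167 CPM in shNT and at 187, 227 and 195 in shNT_OHT. CCNB1 was at 168, 157 and 174 in the libraries labelled shCDK12 and at 82.9, 87.6 and 101 in those labelled shCDK12_OHT. The libraries labelled shCDK12_OHT stood below all others. Cyclin B1 fell with OHT in the hairpin labelled shCDK12 (log2 fold change -0.88 ± 0.09, adjusted p = 2.11e-07) and was lower than in shNT_OHT (log2 fold change -1.12 ± 0.13, adjusted p = 9.34e-05), whereas the differences with OHT in shNT (log2 fold change 0.25 ± 0.13, adjusted p = 0.19) and without OHT (log2 fold change 0.02 ± 0.09, adjusted p = 0.86) did not pass the threshold. CCNA2, cyclin A2, was at 101, 97.2 and 91.3 CPM in shNT and at 87.6, 109.8 and 133 in shNT_OHT. CCNA2 was at 129, 148 and 130.04 in the libraries labelled shCDK12 and at 64.04, 70.5 and 63.5 in those labelled shCDK12_OHT. Here the libraries labelled shCDK12 were the highest as a group, above all shNT libraries (log2 fold change 0.50 ± 0.10, adjusted p = 1.13e-04), and those with OHT the lowest (log2 fold change -1.04 ± 0.09, adjusted p = 3.73e-08). CCNB2, cyclin B2, was at 61.5, 56.2 and 47.7 CPM in shNT and at 57.1, 63.2 and 76.8 in shNT_OHT. CCNB2 was at 116, 115 and 129 in the libraries labelled shCDK12 and at 61.2, 68.1 and 60.6 in those labelled shCDK12_OHT, with no overlap between the libraries labelled shCDK12 and any other group. It was higher there than in shNT (log2 fold change 1.11 ± 0.12, adjusted p = 3.72e-09), the second largest rise among the members, and its level in the libraries labelled shCDK12_OHT overlapped both shNT groups. CDK1, the kinase that drives entry into mitosis, was at 160.3, 199 and 212 CPM in shNT and at 153, 225 and 238 in shNT_OHT. CDK1 was at 222, 286 and 240.2 in the libraries labelled shCDK12 and at 155, 161 and 171 in those labelled shCDK12_OHT. It rose without OHT (log2 fold change 0.42 ± 0.11, adjusted p = 0.00123) and fell with it (log2 fold change -0.63 ± 0.09, adjusted p = 1.71e-05), while the difference between the OHT groups did not pass the threshold (log2 fold change -0.30 ± 0.16, adjusted p = 0.16). CDC25B, which starts CDK1 activation, averaged 50.9 ± 8.21 CPM in shNT, 64.9 ± 21.2 in shNT_OHT, 42.3 ± 2.85 in those labelled shCDK12 and 31.4 ± 2.32 in those labelled shCDK12_OHT. CDC25C averaged 19.8 ± 1.12 CPM in shNT, 20.6 ± 7.43 in shNT_OHT, 19.5 ± 2.27 in those labelled shCDK12 and 13.1 ± 1.35 in those labelled shCDK12_OHT.

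PLK1, a kinase of centrosome maturation and mitotic exit, was at 30.3, 26.6 and 24.1 CPM in shNT and at 48.4, 24.97 and 37.4 in shNT_OHT. PLK1 was at 44.6, 39.1 and 44.3 in the libraries labelled shCDK12 and at 18.2, 20.2 and 13.4 in those labelled shCDK12_OHT. It had the second largest fall with OHT in the hairpin labelled shCDK12 (log2 fold change -1.27 ± 0.15, adjusted p = 9.20e-07), that is 2.42-fold, and was higher without OHT (log2 fold change 0.65 ± 0.16, adjusted p = 7.60e-04). Of the shNT_OHT libraries 1 lay within the range of shNT for PLK1 and 2 above it, and its response there did not pass the threshold (log2 fold change 0.44 ± 0.24, adjusted p = 0.22). AURKA, Aurora kinase A of the spindle poles, was at 185, 187 and 176 CPM in shNT and at 150.3, 193 and 234 in shNT_OHT. AURKA was at 201, 169.9 and 188 in the libraries labelled shCDK12 and at 123, 115 and 119.6 in those labelled shCDK12_OHT. It fell with OHT in the hairpin labelled shCDK12 (log2 fold change -0.64 ± 0.08, adjusted p = 4.08e-06), while the libraries labelled shCDK12 overlapped those of shNT. AURKA has a processed pseudogene, and how reads shared with it were counted is not known.

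The chromosomal passenger complex, with Aurora kinase B as its enzyme, corrects attachments at the centromere. Its 4 genes were all lower in the libraries labelled shCDK12_OHT, both against those labelled shCDK12 and against shNT_OHT. Of all genes tested 23.6% and 22.7% were lower there. AURKB was at 51.6, 47.0 and 56.4 CPM in shNT and at 73.4, 58.3 and 61.2 in shNT_OHT. AURKB was at 28.9, 28.2 and 23.998 in the libraries labelled shCDK12 and at 15.2, 17.96 and 17.2 in those labelled shCDK12_OHT. It was the 1 member of the complex already lower without OHT (log2 fold change -0.91 ± 0.15, adjusted p = 8.69e-06), it fell again with OHT (log2 fold change -0.69 ± 0.14, adjusted p = 5.98e-04), and it showed the largest difference of all members between the OHT groups (log2 fold change -1.91 ± 0.17, adjusted p = 1.72e-05), that is 3.75-fold. BIRC5, survivin, was at 169, 175 and 187 CPM in shNT and at 248, 261 and 240.3 in shNT_OHT. BIRC5 was at 241, 225 and 257 in the libraries labelled shCDK12 and at 113, 119.9 and 103 in those labelled shCDK12_OHT. Both shNT_OHT and the libraries labelled shCDK12 lay above every shNT library, and both differences passed the threshold (log2 fold change 0.46 ± 0.12, adjusted p = 0.0151 and log2 fold change 0.46 ± 0.09, adjusted p = 5.92e-05). In the libraries labelled shCDK12_OHT survivin fell (log2 fold change -1.10 ± 0.08, adjusted p = 4.66e-09), below all 9 others. The rise with OHT in shNT did not pass the threshold without any 1 of the shNT libraries (adjusted p from 0.0506 to 0.0969). INCENP, the scaffold of the complex, averaged 111 ± 7.29 CPM in shNT, 147 ± 32.7 in shNT_OHT, 128 ± 15.5 in those labelled shCDK12 and 77.8 ± 1.42 in those labelled shCDK12_OHT. CDCA8, borealin, averaged 112 ± 7.75 CPM in shNT, 139.98 ± 26.3 in shNT_OHT, 116 ± 10.3 in those labelled shCDK12 and 61.9 ± 1.97 in those labelled shCDK12_OHT, and was among the 10 largest differences between the OHT groups (log2 fold change -1.15 ± 0.14, adjusted p = 1.31e-04).

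The checkpoint, APC/C and chromosome separation genes numbered 9, of which 9 fell with OHT in the libraries labelled shCDK12, 6 were higher without OHT and 4 were lower between the OHT groups. The shares of all genes tested were 23.6%, 31.3% and 22.7% in that order. CDC20, which activates the APC/C and is the target of the checkpoint, was at 120.5, 103 and 101 CPM in shNT and at 167, 105 and 145 in shNT_OHT. CDC20 was at 133, 118 and 119 in the libraries labelled shCDK12 and at 63.8, 67.2 and 67.8 in those labelled shCDK12_OHT. The libraries labelled shCDK12_OHT were well below the rest (log2 fold change -0.90 ± 0.09, adjusted p = 1.43e-07 against those labelled shCDK12 and log2 fold change -1.05 ± 0.16, adjusted p = 3.90e-04 against shNT_OHT), and the difference without OHT did not pass the threshold (log2 fold change 0.20 ± 0.10, adjusted p = 0.0966). UBE2C, the APC/C ubiquitin-conjugating enzyme, was at 109, 77.6 and 85.1 CPM in shNT and at 119, 102 and 132 in shNT_OHT. UBE2C was at 98.0, 73.0 and 91.3 in the libraries labelled shCDK12 and at 44.4, 43.7 and 45.4 in those labelled shCDK12_OHT, with the second largest difference between the OHT groups (log2 fold change -1.38 ± 0.13, adjusted p = 2.91e-05). MAD2L1, the MAD2 checkpoint protein, was at 23.8, 18.1 and 30.3 CPM in shNT and at 13.96, 40.8 and 19.7 in shNT_OHT. MAD2L1 was at 35.4, 76.9 and 53.6 in the libraries labelled shCDK12 and at 26.2, 29.6 and 27.8 in those labelled shCDK12_OHT. Its shNT_OHT libraries ran from 13.96 to 40.8 CPM, on both sides of shNT, and its rise in the libraries labelled shCDK12 was the largest of all members (log2 fold change 1.30 ± 0.21, adjusted p = 6.79e-06), with a fall upon OHT there (log2 fold change -1.03 ± 0.19, adjusted p = 1.44e-04). ESPL1, separase, which cleaves cohesin, was at 42.3, 45.5 and 42.6 CPM in shNT and at 83.8, 56.6 and 41.4 in shNT_OHT. ESPL1 was at 95.2, 74.1 and 77.9 in the libraries labelled shCDK12 and at 44.8, 40.4 and 40.3 in those labelled shCDK12_OHT. It rose without OHT (log2 fold change 0.92 ± 0.13, adjusted p = 9.41e-07) and fell with it in the same hairpin (log2 fold change -0.97 ± 0.11, adjusted p = 7.25e-07), to levels that overlapped shNT. BUB1, a checkpoint kinase, averaged 65.7 ± 4.16 CPM in shNT, 69.6 ± 11.3 in shNT_OHT, 87.6 ± 2.36 in those labelled shCDK12 and 49.3 ± 10.3 in those labelled shCDK12_OHT. Its relative BUB1B, BUBR1 of the mitotic checkpoint complex, averaged 41.4 ± 3.94 CPM in shNT, 49.1 ± 1.52 in shNT_OHT, 53.6 ± 6.92 in those labelled shCDK12 and 35.02 ± 4.47 in those labelled shCDK12_OHT. Their partner BUB3 averaged 107 ± 9.30 CPM in shNT, 109 ± 23.1 in shNT_OHT, 137 ± 15.5 in those labelled shCDK12 and 94.2 ± 2.62 in those labelled shCDK12_OHT, with a smaller span between groups. TTK, the MPS1 kinase that starts checkpoint signalling, averaged 52.5 ± 1.44 CPM in shNT, 56.5 ± 13.3 in shNT_OHT, 55.4 ± 15.3 in those labelled shCDK12 and 35.4 ± 0.65 in those labelled shCDK12_OHT. PTTG1, securin, averaged 42.8 ± 3.03 CPM in shNT, 47.4 ± 14.2 in shNT_OHT, 58.99 ± 10.8 in those labelled shCDK12 and 36.3 ± 4.82 in those labelled shCDK12_OHT, and its near-identical gene copies may share reads with it.

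All 5 outer kinetochore genes fell with OHT in the libraries labelled shCDK12, whereas 2 (NUF2 and CENPF) were lower between the OHT groups. For all genes tested these shares were 23.6% and 22.7%. CENPE, a kinesin-like motor of the kinetochore, was at 118, 109 and 93.3 CPM in shNT and at 76.6, 156 and 109 in shNT_OHT. CENPE was at 170.1, 179.8 and 162 in the libraries labelled shCDK12 and at 89.7, 80.8 and 81.2 in those labelled shCDK12_OHT. It was higher in the libraries labelled shCDK12 than in shNT (log2 fold change 0.67 ± 0.10, adjusted p = 1.84e-06) and fell with OHT (log2 fold change -1.03 ± 0.09, adjusted p = 1.78e-08), while shNT_OHT ranged over the levels of shNT. CENPF, a large coat protein of the kinetochore, averaged 561 ± 17.5 CPM in shNT, 582 ± 90.6 in shNT_OHT, 517 ± 34.9 in those labelled shCDK12 and 306 ± 9.64 in those labelled shCDK12_OHT. The NDC80 complex grips the microtubule, and of its subunits NDC80 averaged 36.8 ± 4.39 CPM in shNT, 26.8 ± 11.8 in shNT_OHT, 47.5 ± 6.62 in those labelled shCDK12 and 31.4 ± 5.10 in those labelled shCDK12_OHT. NUF2 averaged 19.7 ± 2.41 CPM in shNT, 23.8 ± 7.44 in shNT_OHT, 18.3 ± 3.72 in those labelled shCDK12 and 10.8 ± 1.03 in those labelled shCDK12_OHT. SPC25 averaged 15.8 ± 2.88 CPM in shNT, 9.53 ± 4.51 in shNT_OHT, 17.8 ± 0.92 in those labelled shCDK12 and 9.64 ± 1.06 in those labelled shCDK12_OHT, so that shNT_OHT was about as low as the libraries labelled shCDK12_OHT, but it had the fewest counts of any member, 14 in 1 shNT_OHT library.

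Mitotic kinesins and spindle proteins were the largest group, and 12 of 12 fell with OHT in the libraries labelled shCDK12, 10 were lower between the OHT groups and 12 had a negative interaction. Among all genes tested 23.6%, 22.7% and 21.9% did so. KIF20A, the central spindle kinesin MKLP2, was at 75.4, 61.7 and 49.7 CPM in shNT and at 101, 75.7 and 115 in shNT_OHT. KIF20A was at 108, 92.5 and 96.6 in the libraries labelled shCDK12 and at 37.1, 31.7 and 45.5 in those labelled shCDK12_OHT. It had the largest fall of all members (log2 fold change -1.39 ± 0.12, adjusted p = 2.07e-08), that is 2.62-fold, and was higher with OHT in shNT (log2 fold change 0.61 ± 0.19, adjusted p = 0.0385) and without OHT in the libraries labelled shCDK12 (log2 fold change 0.65 ± 0.13, adjusted p = 8.31e-05). The rise in shNT passed the threshold in 2 of the 6 fits that left out 1 library, those without shNT_OHT replicates 1 and 2. HMMR, a spindle-associated hyaluronan receptor, was at 19.2, 20.9 and 26.7 CPM in shNT and at 24.996, 30.8 and 26.4 in shNT_OHT. HMMR was at 38.4, 45.4 and 39.3 in the libraries labelled shCDK12 and at 15.1, 16.7 and 20.4 in those labelled shCDK12_OHT, highest in the libraries labelled shCDK12 (log2 fold change 0.94 ± 0.17, adjusted p = 2.45e-05) and lowest, with 1 library overlapping shNT, in those labelled shCDK12_OHT (log2 fold change -1.26 ± 0.14, adjusted p = 7.90e-07). KIF20B, a kinesin of late cytokinesis, was at 99.2, 84.4 and 100.0 CPM in shNT and at 76.3, 163 and 110.1 in shNT_OHT. KIF20B was at 105, 146 and 107 in the libraries labelled shCDK12 and at 58.3, 56.2 and 52.9 in those labelled shCDK12_OHT. Its shNT_OHT libraries spread from 76.3 to 163 CPM, and it fell with OHT in the libraries labelled shCDK12 (log2 fold change -1.11 ± 0.12, adjusted p = 3.11e-07). KIF23, the MKLP1 kinesin of the central spindle, was at 253 to 307 CPM in shNT, 303 to 319.7 in shNT_OHT, 238 to 252 in those labelled shCDK12 and 133 to 151 in those labelled shCDK12_OHT, and DLGAP5, which stabilizes kinetochore fibres, at 49.3 to 63.6 CPM in shNT, 31.8 to 66.6 in shNT_OHT, 70.0 to 85.6 in those labelled shCDK12 and 34.9 to 42.7 in those labelled shCDK12_OHT. DLGAP5 and NUSAP1, a microtubule bundler, were higher without OHT (log2 fold change 0.55 ± 0.13, adjusted p = 7.27e-04 and log2 fold change 0.83 ± 0.12, adjusted p = 5.93e-07), while KIF11, the Eg5 motor that separates the poles, was lower (log2 fold change -0.34 ± 0.11, adjusted p = 0.00696). NUSAP1 was at 56.0 to 61.3 CPM in shNT, 48.4 to 65.2 in shNT_OHT, 97.5 to 113 in those labelled shCDK12 and 61.1 to 63.2 in those labelled shCDK12_OHT, so that the libraries labelled shCDK12_OHT were no lower than shNT. KIF11 averaged 126 ± 8.04 CPM in shNT, 105 ± 18.8 in shNT_OHT, 97.5 ± 10.7 in those labelled shCDK12 and 55.5 ± 0.89 in those labelled shCDK12_OHT. KIF14, a cytokinesis kinesin, averaged 57.9 ± 3.69 CPM in shNT, 52.3 ± 3.27 in shNT_OHT, 48.02 ± 4.51 in those labelled shCDK12 and 25.03 ± 3.05 in those labelled shCDK12_OHT. KIF2C, the microtubule depolymerase MCAK, averaged 150.5 ± 2.86 CPM in shNT, 187 ± 16.3 in shNT_OHT, 160.4 ± 14 in those labelled shCDK12 and 103 ± 2.26 in those labelled shCDK12_OHT. KIF4A, a chromokinesin, averaged 62.8 ± 5.12 CPM in shNT, 83.3 ± 15.6 in shNT_OHT, 63.7 ± 4.56 in those labelled shCDK12 and 44.7 ± 2.63 in those labelled shCDK12_OHT. KIF18A, which damps chromosome movements at the metaphase plate, averaged 40.7 ± 6.75 CPM in shNT, 46.9 ± 13.9 in shNT_OHT, 51.04 ± 3.46 in those labelled shCDK12 and 29.1 ± 1.71 in those labelled shCDK12_OHT. TPX2, the activator of Aurora kinase A, averaged 209 ± 13.9 CPM in shNT, 237 ± 39.3 in shNT_OHT, 186 ± 13.2 in those labelled shCDK12 and 125 ± 1.39 in those labelled shCDK12_OHT. In each of these 6 genes the mean of the libraries labelled shCDK12_OHT was the lowest of the 4 groups.

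The cytokinesis genes PRC1, ANLN and ECT2 all fell with OHT in the libraries labelled shCDK12 and were all lower between the OHT groups. So did 23.6% and 22.7% of all genes tested. ANLN, anillin of the cleavage furrow, was at 233, 227 and 240.0 CPM in shNT and at 221, 238 and 254 in shNT_OHT. ANLN was at 218, 221 and 194 in the libraries labelled shCDK12 and at 131, 139 and 129 in those labelled shCDK12_OHT, with the libraries labelled shCDK12_OHT below the others. ECT2, the exchange factor that activates RhoA, averaged 59.04 ± 1.28 CPM in shNT, 53.04 ± 15.6 in shNT_OHT, 42.3 ± 10.9 in those labelled shCDK12 and 27.5 ± 2.65 in those labelled shCDK12_OHT, and was lower without OHT (log2 fold change -0.44 ± 0.15, adjusted p = 0.0157). PRC1, a bundler of central spindle microtubules, averaged 115 ± 13.2 CPM in shNT, 112 ± 16 in shNT_OHT, 122 ± 2.08 in those labelled shCDK12 and 84.6 ± 7.02 in those labelled shCDK12_OHT.

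The cohesion genes differed among themselves. RAD21, the cohesin subunit cut by separase, was at 462, 494 and 478 CPM in shNT and at 338, 498 and 432 in shNT_OHT. RAD21 was at 319.6, 371 and 346 in the libraries labelled shCDK12 and at 363, 366 and 357 in those labelled shCDK12_OHT. The libraries labelled shCDK12 and shCDK12_OHT overlapped (log2 fold change 0.06 ± 0.08, adjusted p = 0.52), and both lay below every shNT library (log2 fold change -0.45 ± 0.08, adjusted p = 2.72e-05 for the former). RAD21 was 1 of the 2 members that did not pass the threshold with OHT in that hairpin, the other being NCAPD2, and both are named because their values were seen. SGO1 and SGO2 are shugoshins, which protect centromeric cohesin. SGO1 was at 61.98, 55.9 and 45.6 CPM in shNT and at 40.3, 92.4 and 55.4 in shNT_OHT. SGO1 was at 35.8, 47.5 and 45.02 in the libraries labelled shCDK12 and at 25.96, 23.4 and 24.9 in those labelled shCDK12_OHT. The shNT_OHT libraries spread from 40.3 to 92.4 CPM, all above those labelled shCDK12_OHT (log2 fold change -1.25 ± 0.26, adjusted p = 0.00273). SGO2 was at 79.8, 111 and 108 CPM in shNT and at 69.5, 127 and 103 in shNT_OHT. SGO2 was at 169, 189.9 and 147 in the libraries labelled shCDK12 and at 92.3, 89.7 and 101 in those labelled shCDK12_OHT, higher in the libraries labelled shCDK12 (log2 fold change 0.79 ± 0.12, adjusted p = 1.80e-06), with the other 3 groups overlapping.

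Condensin and chromosome genes fell in 6 of 7 cases with OHT in the libraries labelled shCDK12, and 6 of 7 were lower between the OHT groups. Over all genes tested 23.6% fell and 22.7% were lower. MKI67, the Ki-67 protein that coats mitotic chromosomes, was at 1342, 1143 and 1075 CPM in shNT and at 1458, 1129 and 1437 in shNT_OHT. MKI67 was at 1439.9, 1006 and 1241 in the libraries labelled shCDK12 and at 658, 596 and 691 in those labelled shCDK12_OHT. The libraries labelled shCDK12_OHT lay well apart from all others (log2 fold change -0.92 ± 0.10, adjusted p = 3.27e-07 against those labelled shCDK12 and log2 fold change -1.02 ± 0.11, adjusted p = 6.20e-05 against shNT_OHT). TOP2A, the topoisomerase that untangles sister chromatids, was at 382, 394 and 364 CPM in shNT and at 280.1, 374 and 326 in shNT_OHT. TOP2A was at 287, 299 and 269.6 in the libraries labelled shCDK12 and at 168, 182 and 194 in those labelled shCDK12_OHT. It was lower in the libraries labelled shCDK12 than in shNT (log2 fold change -0.40 ± 0.08, adjusted p = 1.24e-04) and fell again with OHT (log2 fold change -0.66 ± 0.08, adjusted p = 1.87e-06). SMC4, a core condensin subunit, was at 266, 269 and 275 CPM in shNT and at 162, 299 and 230.1 in shNT_OHT. SMC4 was at 146, 159.5 and 140.5 in the libraries labelled shCDK12 and at 104, 99.3 and 109.6 in those labelled shCDK12_OHT, the second largest difference in that direction without OHT after AURKB (log2 fold change -0.84 ± 0.09, adjusted p = 3.53e-09), and it was also lower between the OHT groups (log2 fold change -1.10 ± 0.19, adjusted p = 9.82e-04). NCAPD2, a condensin I subunit, was at 186, 174 and 148 CPM in shNT and at 222, 152 and 183 in shNT_OHT. NCAPD2 was at 162, 113 and 146 in the libraries labelled shCDK12 and at 109, 115 and 131 in those labelled shCDK12_OHT, and its libraries with and without OHT overlapped in the hairpin labelled shCDK12 (log2 fold change -0.24 ± 0.11, adjusted p = 0.0756). SMC2, the partner of SMC4, averaged 88.6 ± 8.45 CPM in shNT, 68.7 ± 22.5 in shNT_OHT, 102 ± 15.6 in those labelled shCDK12 and 68.4 ± 4.68 in those labelled shCDK12_OHT, and the means of its OHT groups differed by less than their SDs. NCAPG, a condensin I subunit, averaged 52.7 ± 4.49 CPM in shNT, 42.9 ± 7.96 in shNT_OHT, 55.8 ± 5.87 in those labelled shCDK12 and 28.8 ± 1.91 in those labelled shCDK12_OHT. NCAPH, the kleisin of condensin I, averaged 111 ± 16.5 CPM in shNT, 121 ± 19.5 in shNT_OHT, 108 ± 3.12 in those labelled shCDK12 and 78.9 ± 4.46 in those labelled shCDK12_OHT.

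Of the regulators of this gene program, FOXM1, a forkhead factor, was at 274, 200.4 and 214 CPM in shNT and at 272, 218 and 264 in shNT_OHT. FOXM1 was at 273, 196 and 244 in the libraries labelled shCDK12 and at 167, 154 and 176 in those labelled shCDK12_OHT. It fell with OHT in the libraries labelled shCDK12 (log2 fold change -0.52 ± 0.10, adjusted p = 2.57e-04) and was lower between the OHT groups (log2 fold change -0.58 ± 0.12, adjusted p = 0.00237). MYBL2, B-MYB, was at 95.3, 75.1 and 72.8 CPM in shNT and at 115, 86.5 and 112 in shNT_OHT. MYBL2 was at 103, 96.4 and 107 in the libraries labelled shCDK12 and at 68.1, 70.8 and 71.01 in those labelled shCDK12_OHT. It was higher without OHT (log2 fold change 0.33 ± 0.12, adjusted p = 0.015) and fell with OHT (log2 fold change -0.54 ± 0.09, adjusted p = 5.44e-05), to below every library of the other groups. LIN9, a core subunit of MuvB, was at 45.3, 55.1 and 44.6 CPM in shNT and at 29.5, 64.1 and 43.5 in shNT_OHT. LIN9 was at 42.2, 47.1 and 31.1 in the libraries labelled shCDK12 and at 30.9, 27.4 and 32.5 in those labelled shCDK12_OHT. Its groups overlapped in every pairwise comparison, and its fall (log2 fold change -0.43 ± 0.15, adjusted p = 0.0199) did not pass the threshold in 3 of the 6 fits without 1 library, with all libraries in one fit or after thinning.

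**Figure D4:**
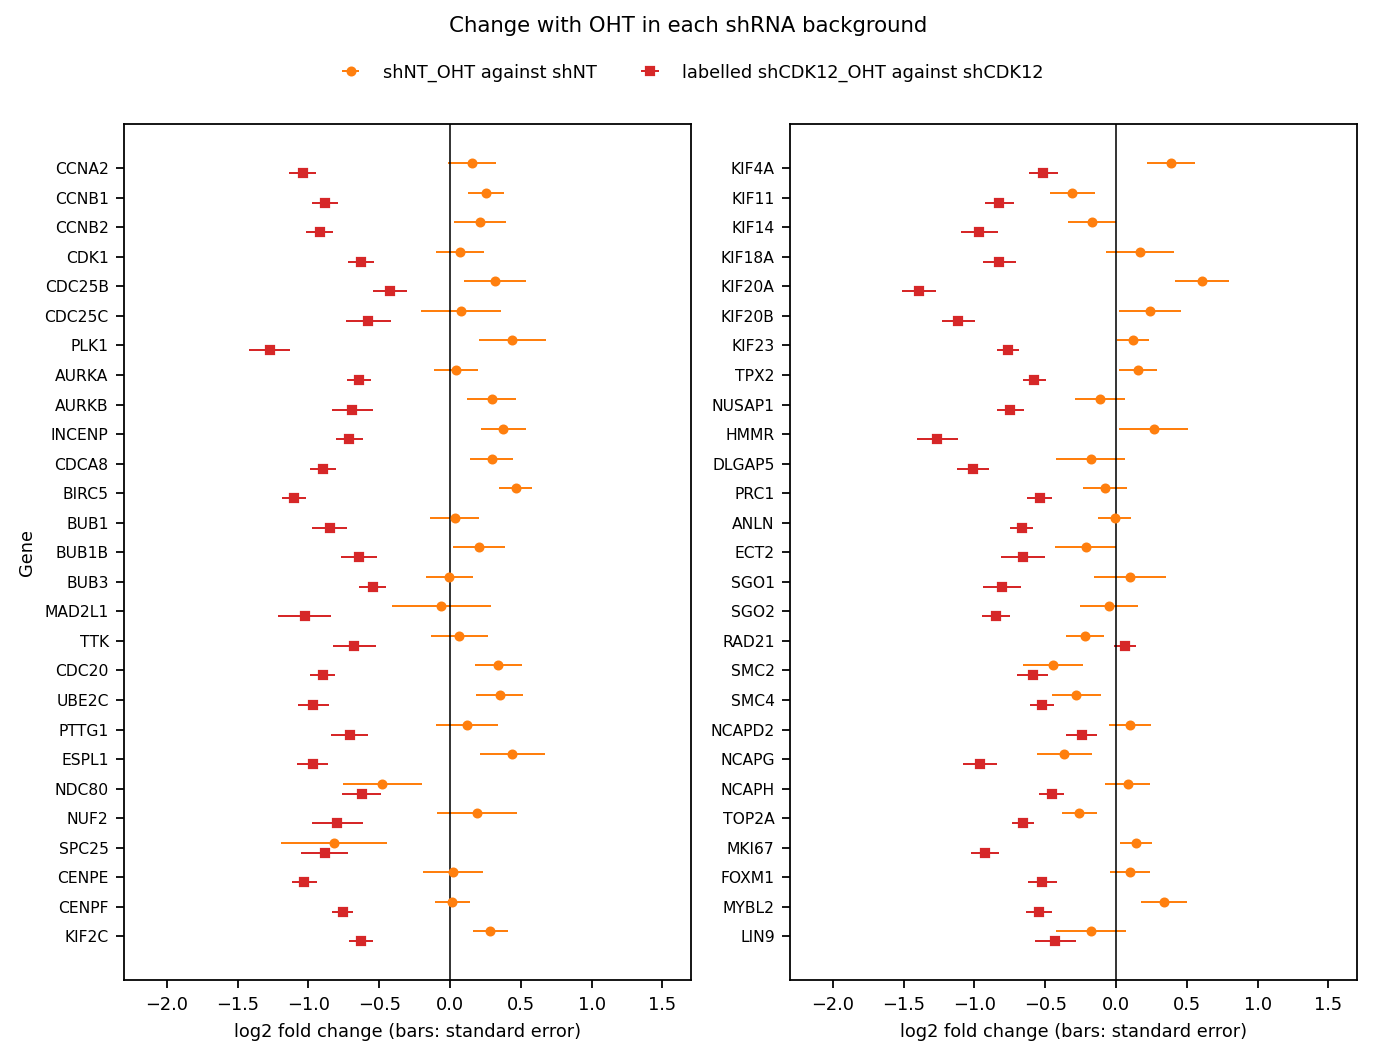
log2 fold change with OHT (x axis, bars are SE) for each of the 54 genes (rows, by role) in the shNT background (orange circles) and in the libraries labelled shCDK12 (red squares). The orange points lie on both sides of 0, from -0.82 to 0.61, and the red ones from -1.39 to 0.06, with RAD21 alone above 0.

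A further list of 80 mitotic genes, which holds no member, was set beside them. With OHT in the libraries labelled shCDK12, 3 of the 79 tested rose and 53 fell (median -0.43), and between the OHT groups 4 of 80 were higher and 41 lower (median -0.47). Of all genes tested 25.5% rose and 23.6% fell in the former, and 22.7% differed each way in the latter. The largest falls with OHT were of UBE2S, a ubiquitin-conjugating enzyme of the APC/C (log2 fold change -1.33 ± 0.17, adjusted p = 3.20e-06), the spindle protein FAM83D (log2 fold change -1.26 ± 0.09, adjusted p = 2.77e-09) and TROAP (log2 fold change -1.23 ± 0.10, adjusted p = 1.52e-08), and the largest rise was of FZR1 (log2 fold change 0.93 ± 0.13, adjusted p = 9.99e-06), the APC/C activator of late mitosis and G1. In shNT, OHT raised 5 of 78, among them UBE2S, FAM83D and CDCA5 (log2 fold change 0.56 ± 0.13, adjusted p = 0.00778), and lowered 2, KNTC1 and NIPBL. The share that rose, 6.41%, was below that of all genes (9.11%). Without OHT 22 of 80 were higher and 24 lower in the libraries labelled shCDK12, led by WEE1, which inhibits CDK1 (log2 fold change 1.08 ± 0.09, adjusted p = 7.58e-11), and downwards by the NDC80 complex subunit SPC24 (log2 fold change -1.67 ± 0.31, adjusted p = 3.16e-05). These shares, 27.5% higher and 30% lower, lie near those of all genes (31.3% and 30.6%). The interaction was negative past the threshold for 35 of 80 and positive for 3 (21.9% and 23.2% of all genes).

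Genes of G1/S and S phase were followed as the neighbouring part of the cell cycle. Of 28, 16 were higher and 0 lower in the libraries labelled shCDK12 than in shNT, led by MCM2 (log2 fold change 0.95 ± 0.10, adjusted p = 6.59e-09). The 57.1% higher stood beside 31.3% of all genes tested, of which 30.6% were lower. With OHT in that hairpin 0 rose and 22 fell (median -0.57), led by CDC45 (log2 fold change -0.92 ± 0.13, adjusted p = 1.29e-05). The share that fell was 78.6%, where 25.5% of all genes rose and 23.6% fell. Between the OHT groups 3 were higher and 9 lower, the former being E2F2, CCNE2 and PCNA. These are 10.7% and 32.1%, against 22.7% of all genes each way. In shNT 2 rose with OHT and 4 fell, including CCNE2, cyclin E2 (log2 fold change -1.32 ± 0.25, adjusted p = 0.00284). The 7.14% that rose was below the 9.11% of all genes, and 14.3% fell against 8.27%. The interaction was past the threshold for 17 in the negative and 2 in the positive direction (21.9% and 23.2% of all genes). Summed levels were 2945 ± 63 CPM (SD, n = 3) in shNT, 3069 ± 165 in shNT_OHT, 3754 ± 79 in the libraries labelled shCDK12 and 2632 ± 59 in those labelled shCDK12_OHT. The part of cell cycle stage in the members' levels was not tested.

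**Figure D5:**
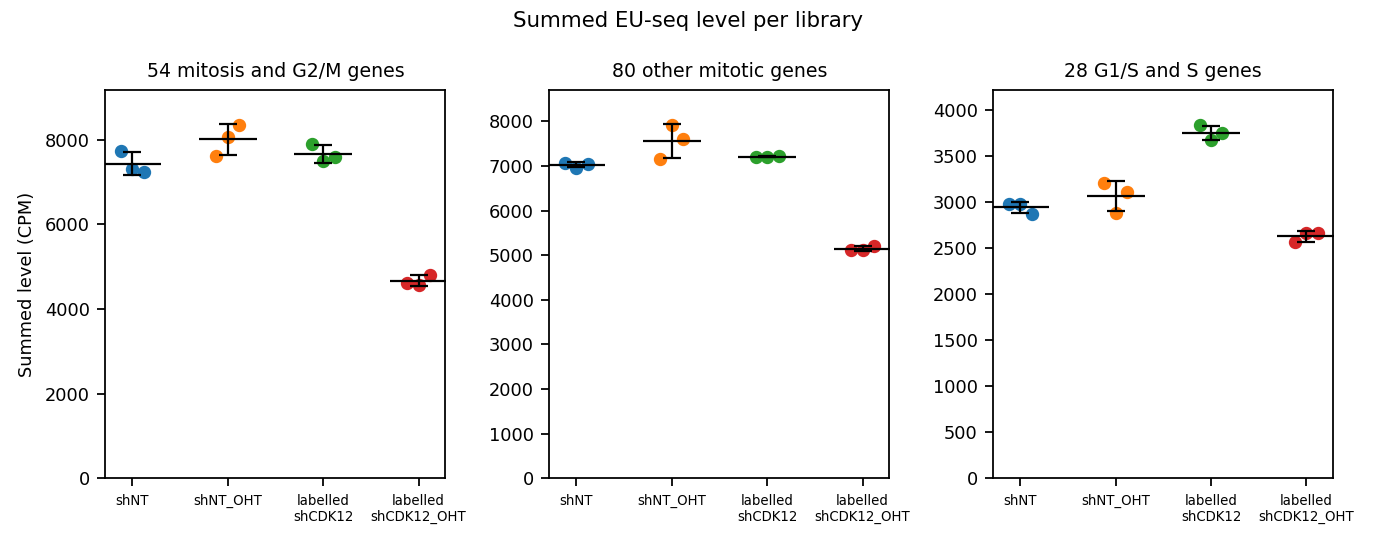
Summed level in CPM (y axis, from 0) of the 54 genes, of 80 other mitotic genes and of 28 G1/S and S phase genes in each library (points), with the group mean and SD (bars, n = 3). The libraries labelled shCDK12_OHT are the lowest in all panels, at 4570 to 4809 CPM for the 54 genes.

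Several properties that the list did not use were set beside the changes. With OHT in the libraries labelled shCDK12 the median log2 fold change was -0.79 for the 31 members with TTTGAA and -0.71 for the 15 without. For CCAAT these were -0.85 for 33 and -0.62 for 13, and for CACGTG -0.81 for 7 and -0.76 for 39. None of these splits was tested. Gene span in GENCODE release 44 ran from 4.22 to 131 kb with a median of 34.03 kb. Across the 54 genes, which are not independent replicates and share the same libraries, span had a Pearson r of -0.43 with the OHT response in shNT, 0.24 with that in the libraries labelled shCDK12 and 0.43 with the interaction, where all genes had -0.29, 0.12 and 0.21. The interaction is made from both OHT responses, so its r is not independent of theirs. The 27 shorter members had a median of -0.88 with OHT in the libraries labelled shCDK12 and the 27 longer ones -0.67, and 26 of each fell. Whether the counting used strand is not stated, and 20 members overlap an exon of another gene in that annotation, 19 of them on the opposite strand, among them KIF20A with BRD8 and CDC23, PLK1 with ERN2, CCNA2 with EXOSC9, HMMR with HMMR-AS1 and RAD21 with UTP23. In the stretches shared on opposite strands, reads cannot be told from those of the partner unless strand was used. On the same strand they cannot be told apart either way. Of the 34 members with no such overlap 34 fell with OHT in the libraries labelled shCDK12, 21 were lower between the OHT groups, 28 had a negative interaction, 14 were higher and 4 lower without OHT, and 1 rose with OHT in shNT. In the same order, the shares of all genes tested were 23.6%, 22.7%, 21.9%, 31.3%, 30.6% and 9.11%.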

How the data were processed

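The authors deposited raw counts, whole reads per gene for 23434 Entrez identifiers in 12 libraries, not normalized. Submitters' processing notes name STAR 2.7.5c, featureCounts 1.4.5-p1 and hg19, and the kit is stranded but strand use in counting is not given in the sources used here. Symbols came from RefSeq for 23284 identifiers, and 150 without a symbol stayed in the tests. Totals of 1251695 to 10447836 counts limit the precision of low genes. From these counts, groups taken from the labels were compared in edgeR 4.0.16 (R 4.3.3): TMM, a minimum mean of 32 normalized counts, quasi-likelihood test, Benjamini-Hochberg adjustment over all genes tested, threshold 0.05. Pairwise fits held the 6 libraries compared and the interaction all 12. On simulated data with 200 genes changed 2-fold, 148, 183, 188, 139 and 117 of these 200 were recovered (among 10272, 11718, 12519, 11668 and 11699 genes tested) in the order shNT_OHT, shCDK12, and shCDK12_OHT against shCDK12 and against shNT_OHT, then the interaction, with 9, 13, 12, 13 and 6 false calls. The data differ from this setting, with 17.4% to 61.9% of genes called. The simulation therefore checks the code and does not measure how many member changes were found or missed.

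Named fold changes were drawn from 12 members in each comparison (CCNA2, CCNB1, CDK1, PLK1, CDC20, AURKA, AURKB, TOP2A, MKI67, FOXM1, MYBL2 and LIN9), the 10 largest past the threshold each way (5 in the interaction) and the 3 largest each way in other lists, with CDK12 and MYC as checks, and not all are printed. Members, lists and these choices were made with earlier results of these data known. The alternatives were a replicate block, DESeq2 1.42.0, scaling by upper quartiles, no filter, filterByExpr, 1 fit of all libraries, thinning to 1251695 counts and leaving out each library. RefSeq promoters are on GRCh38.p14 and gene spans from GENCODE release 44, so no coordinate of the counts was used.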

Additional observations from a re-analysis of the deposited data

Results flagged for a closer look

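The OHT response differed between the shNT background and the hairpin labelled shCDK12, by the interaction term in edgeR (quasi-likelihood, Benjamini-Hochberg adjusted), for 44 of the 54 members, all in the negative direction, where 21.9% of all genes tested did so. The interaction on the log2 scale was largest for KIF20A (-2.03, adjusted p = 8.40e-07), PLK1 (-1.77), BIRC5 (-1.60), HMMR (-1.55) and ESPL1 (-1.45). Of the cyclins and CDK1 it was -1.23 for CCNA2, -1.16 for CCNB1 and -0.73 for CDK1. It was -1.28 for CDC20, -0.72 for AURKA and -1.02 for AURKB. Of the chromosome genes it was -1.10 for MKI67 and -0.43 for TOP2A, and of the regulators -0.66 for FOXM1 and -0.92 for MYBL2. These genes passed the same test. LIN9, at -0.25, did not.

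The genes used to check the labels were picked out by the same test, with -0.89 for CDK12 and 0.90 for MYC. New CDK12 RNA did not differ past the threshold between shNT and the libraries labelled shCDK12. The direction and order of the differences in OHT response therefore hold only for the libraries as labelled. With the labels shCDK12 and shCDK12_OHT exchanged, the OHT response in that hairpin would have the opposite sign, and the interaction would change in sign or size and in its order of genes. No group had more than 3 libraries, so single libraries were not tested as outliers within a group.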

How the results depend on the processing

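Member counts kept within 1.5 times under DESeq2, upper-quartile normalization and both other filters in all comparisons. Thinning to 1251695 counts gave 1 higher in the shNT response to OHT, 8 higher without OHT, 23 lower in both shCDK12_OHT comparisons and 22 lower in the interaction. After thinning, the shares of all genes in that order were 5.79%, 19.7%, 7.40% and 13.0%, and 12.5%. One fit of all 12 libraries gave 7 higher in the shNT response. That fit called 28.1% of 11699 genes, 1766 of them higher, against 17.4% in the main fit. Leaving out 1 library gave 0 to 9 members higher and 0 to 3 lower in the shNT response to OHT, 18 to 21 higher and 5 to 9 lower without OHT, 51 to 52 lower with OHT in the hairpin labelled shCDK12, 0 to 1 higher and 31 to 45 lower between the OHT groups, and 0 to 1 higher and 40 to 46 lower in the interaction. The 5 came without shCDK12 replicate 3 and the 9 without shNT_OHT replicate 2. Calls over all genes in these fits, in the same order, ran from 6.58% to 24.9%, 55.4% to 60.5%, 40.6% to 51.1%, 30.8% to 52.8% and 40.0% to 49.6%. The cause was not tested, though thinning and leaving out remove counts or samples.

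Of 106 fold changes of named genes, 58 kept call and sign under every alternative, 27 lost a call under at least 1, 10 gained one and 13 changed sign. Of those 13 only LIN9 with OHT in the hairpin labelled shCDK12 had passed the threshold, and none passed it with the opposite sign. Thinned, LIN9 was at 0.31 there and at 0.60 in the interaction, CDK1 at -0.013 in the shNT response, and FOXM1 at -0.020 and CDK12 at 0.13 without OHT (log2). Without a filter CCNB1 was at -0.018 and AURKA at -0.0044 without OHT, and CCNB1 with filterByExpr at -0.0034. Leaving out 1 library gave, in the shNT response, -0.0216 to 0.326 for CCNA2, -0.0617 to 0.272 for CDK1, -0.139 to 0.216 for AURKA, -0.420 to 0.0542 for LIN9 and -0.182 to 0.0313 for MYC. Without OHT it gave -0.0383 to 0.0658 for CCNB1, -0.0135 to 0.0995 for AURKA, -0.0605 to 0.187 for MKI67, -0.0500 to 0.200 for FOXM1 and -0.0999 to 0.00658 for CDK12. Between the OHT groups MYC ran from -0.0613 to 0.139.

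The labels do not say what a replicate number shares, and not every same-numbered pair deviated together, so the numbers were not used to pair the samples. Deviations of same-numbered libraries correlated at -0.092 to 0.32 across genes, over 0.1 in 3 of 18 pairs (1 of 36 pairs with different numbers). In 19 of 36 cases a library was closest to its own number among the 3 libraries of another group, a hint from the data, not the design, that some numbers share something. With the replicate block 2 members rose in the shNT response, 21 were higher and 8 lower without OHT, 53 and 33 were lower in the shCDK12_OHT comparisons and 44 in the interaction, and no call of a named gene changed. In that order of comparisons the block called 16.5%, 63.4%, 49.5%, 41.1% and 46.0% of all genes tested. The main fit called 17.4%, 61.9%, 49%, 45.4% and 45.1%.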
